A study of Mus musculus with 6 samples.

Results

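Mitochondrial ribosomal protein (MRP) genes were examined in total RNA-seq of 4T1 cells, a mouse mammary gland cancer line, with or without stable expression of METTL7A1. All genes of the deposited count table with the symbol Mrpl or Mrps, followed by a number and at most 1 letter from a to c, were taken. This gave 77 of the 48587 genes listed, 48 with a large subunit symbol (Mrpl) and 29 with a small subunit symbol (Mrps). Mrpl53 had 0 counts in every library, and the other 76 passed the abundance filter of at least 1 cpm (read counts scaled to the size of the library) in at least 3 libraries, which 13166 genes of the table passed. Levels in cpm given below were in addition scaled by TMM, a normalization factor for each library. The exons of Mrpl53 (695 bases) were shared in full, on the same strand, with those of Gm42688 (41 to 74 counts), so these counts cannot show whether Mrpl53 was transcribed. A further subunit gene was listed as Ict1, an older symbol of Mrpl58, and was therefore outside the symbol rule.

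The METTL7A1 group held 3 libraries of 4T1 cells that were stably transfected with a Mettl7a1 cDNA driven by a CMV promoter and kept under G418, and the mock group held 3 libraries of 4T1 cells with the empty vector. METTL7A1 is a methyltransferase-like protein, and the comparison asked how its expression changed the transcriptome of a cell line in which the gene is expressed at a low level. The labels number the samples as replicates 1 to 3 of each group, and the study's methods describe them as biological triplicates. Whether each line was a single clone or a pool is not given in the sources used here. Each library held between 18386780 and 28459338 assigned counts, of which the MRP genes took 0.180% to 0.215%. Mettl7a1 was at 342 to 422 cpm in the METTL7A1 libraries and at 1.17 to 1.64 cpm in the mock libraries (log2 fold change 8.17, SE 0.14), so every library followed its label. The epithelial markers Krt8, Krt18, Krt19, Epcam and Cdh1 were detected in every library (summed level 1452 to 1720 cpm with METTL7A1 and 1413 to 1733 cpm in mock, with no call among the 5). Leukocyte markers summed to 11.6 to 14.3 cpm with METTL7A1 and to 5.03 to 6.56 cpm in mock (1 of 4 tested and called, Cd68, higher, with Cd3e at 0), fibroblast markers to 23.9 to 26.6 and 17.4 to 19.8 cpm (1 of 4 tested and called, Pdgfra, higher), and endothelial markers to 0.75 to 0.89 and 0.41 to 0.64 cpm (none of 3 tested). Their part in the results was not tested.

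The mitochondrial ribosome translates the few mRNAs of the mitochondrial genome, all of which encode subunits of the oxidative phosphorylation complexes. Its RNAs are made inside the organelle, whereas its proteins are encoded by nuclear genes scattered over the chromosomes, made in the cytosol and imported. Some of these proteins descend from those of the bacterial ribosome and others were added in the mitochondrial lineage. Symbols do not always follow position in the particle. The products of Mrps30 and Mrps18a sit in the large subunit, and that of Mrps36 has been assigned to the 2-oxoglutarate dehydrogenase complex. Subunit counts, medians, levels and ratios below follow the symbols, so these genes are counted with the small subunit.

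Most MRP genes had slightly lower values in METTL7A1 cells than in mock cells, and all fold changes were small. On the log2 scale the change of METTL7A1 over mock was below 0 for 64 of the 76 genes tested and above 0 for 12, with a median of -0.20 (interquartile range -0.31 to -0.07, full range -0.79 to 0.47), whereas over all 13166 genes 52.9% were below 0 with a median of -0.03. By edgeR's quasi-likelihood test at a Benjamini-Hochberg adjusted p under 0.05, 22 MRP genes were lower (28.9%, against 21% of all genes tested) and 2 were higher (2.63%, against 21.1% of all genes tested). Calls in either direction made up 31.6% of the MRP genes and 42.1% of the whole table. The values of the METTL7A1 and mock libraries did not overlap for 27 genes that were lower and 2 that were higher (background 25.6% and 25.9%). In bulk RNA a smaller number of cells that make a transcript and less of it per cell cannot be told apart. The 47 genes with a large subunit symbol had 16 lower and 1 higher, with a median of -0.22. The 29 with a small subunit symbol had 6 lower, Mrps30 among them, and 1 higher, with a median of -0.17. This difference was not tested.

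**Figure D1:**
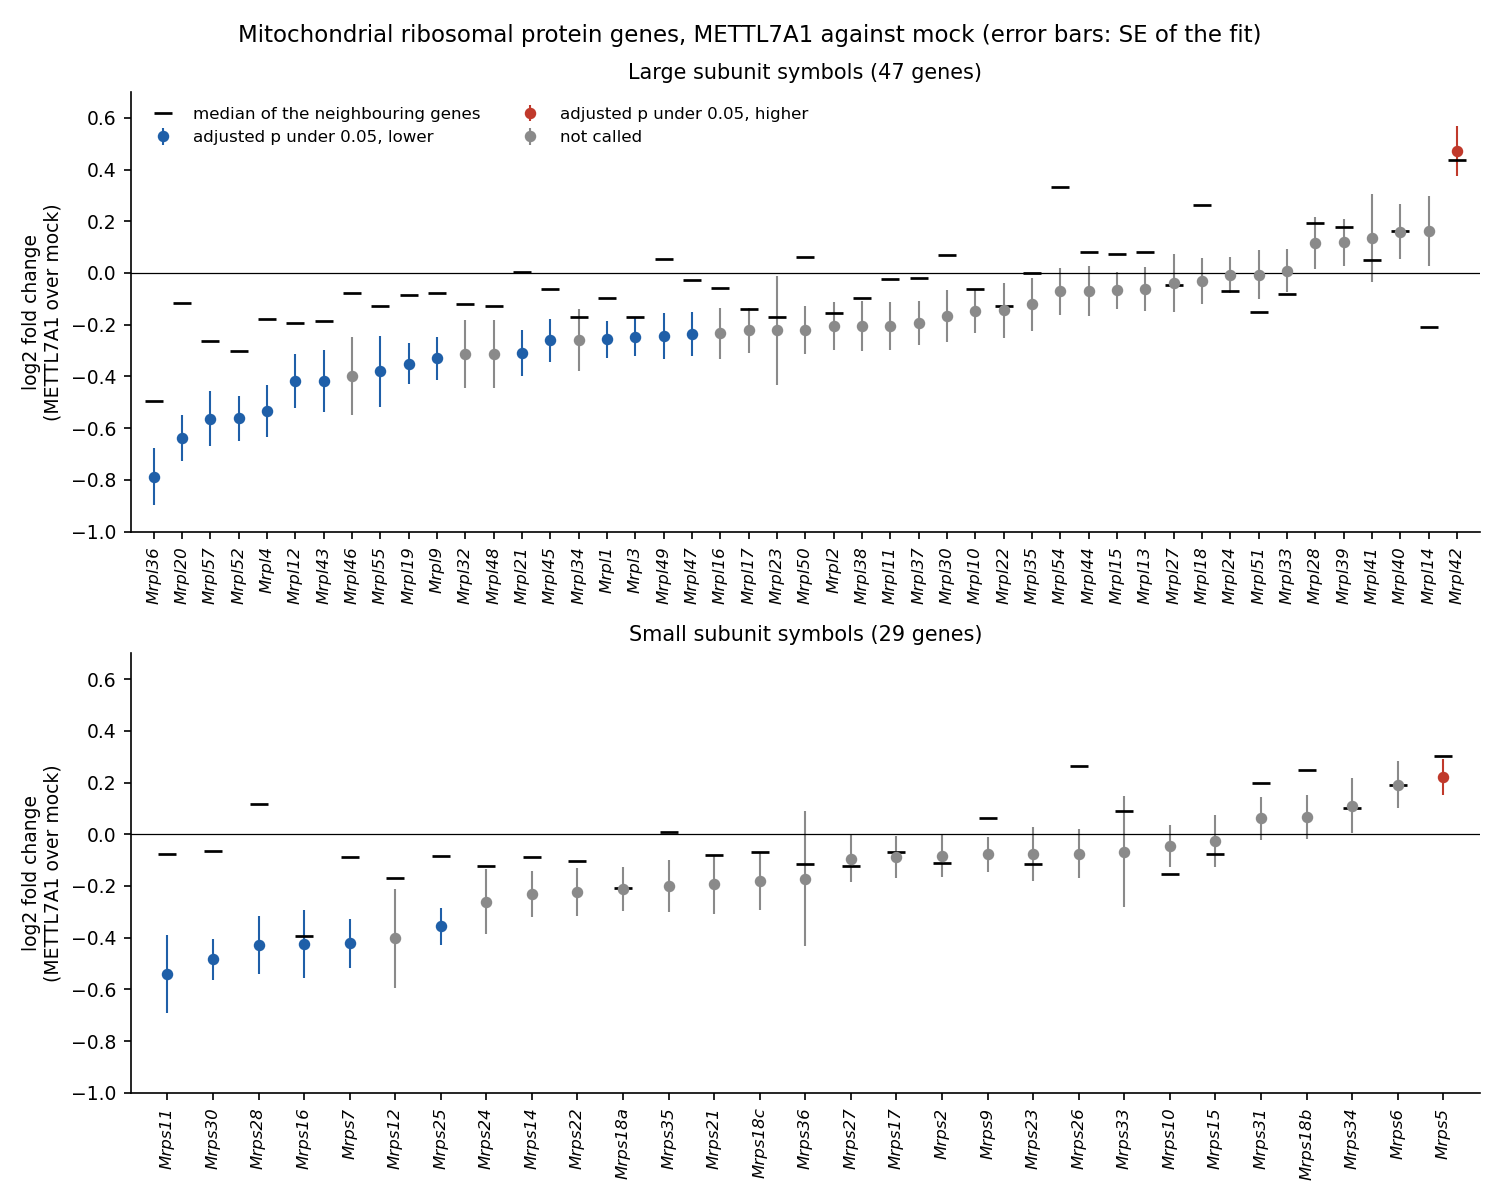
Log2 fold change of METTL7A1 over mock (vertical axis) for the 76 MRP genes tested, ordered by value within the large and the small subunit, with bars for the SE of the fit and a black dash for the median of the neighbouring genes. Values run from -0.79 (Mrpl36) to 0.47 (Mrpl42), with 22 genes in blue called lower and 2 in red called higher.

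Under the thresholds of the study, an adjusted p under 0.01 with a log2 fold change beyond 1.5 in either direction, 0 of the 76 genes passed with edgeR, DESeq2 or limma voom (background 2.48%). At an unadjusted p under 0.05, the edgeR test gave 34 lower and 2 higher, and the share over all genes at this threshold is not given here. The count of lower genes moved with single libraries. It was 14 without METTL7A1 replicate 2, 13 without mock replicate 1, 14 without mock replicate 2 and 35 without mock replicate 3. The share of all genes called in either direction moved too. It was 29.1%, 32.7%, 35.3% and 44.5% in the same order, beside 42.1% with every library. The count of higher genes fell to 1 without METTL7A1 replicate 2, METTL7A1 replicate 3 or mock replicate 3 and rose to 3 without METTL7A1 replicate 1. The large subunit median ranged from -0.27 to -0.16 over these omissions. That of the small subunit was -0.10 without METTL7A1 replicate 1 and -0.11 without mock replicate 2.

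Single libraries stood apart within the mock group. Relative to the mean of the mock libraries, the median MRP gene stood at -0.25, -0.19 and -0.13 (log2) in METTL7A1 replicates 1 to 3 and at 0.03, 0.10 and -0.14 in mock replicates 1 to 3. Mock replicate 3 therefore lay among the METTL7A1 libraries, with 69 of 76 genes under the mock mean, while mock replicate 2 had 10 such genes. Summed over all MRP genes, the level was 1787, 1873 and 1932 cpm with METTL7A1 (mean 1864 ± 73.0, SD, n = 3) and 2131, 2231 and 1920 cpm in mock (2094 ± 159, SD, n = 3), so the sums overlapped at mock replicate 3. Before TMM scaling, the MRP genes took 0.180%, 0.194% and 0.195% of the counts in METTL7A1 replicates 1 to 3. In mock replicates 1 to 3 they took 0.191%, 0.215% and 0.207%. By this share mock replicate 1, and not mock replicate 3, lay among the METTL7A1 libraries. TMM scaling factors were 0.898, 0.967 and 1.08 in mock replicates 1 to 3. The transcript AY036118, which lies in a ribosomal RNA element, took 145690, 52030 and 8952 cpm in the same libraries. It took 4973.5, 24801 and 44843 cpm in METTL7A1 replicates 1 to 3, so it varied widely in both groups. The part of AY036118 in the position of mock replicate 3 was not tested. The ratio of the summed level of large subunit symbols to that of small subunit symbols was 1.96, 2.03 and 1.98 with METTL7A1. In mock it was 2.03, 2.09 and 2.02. The groups overlapped, so no shift between the sets of symbols was resolved.

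**Figure D2:**
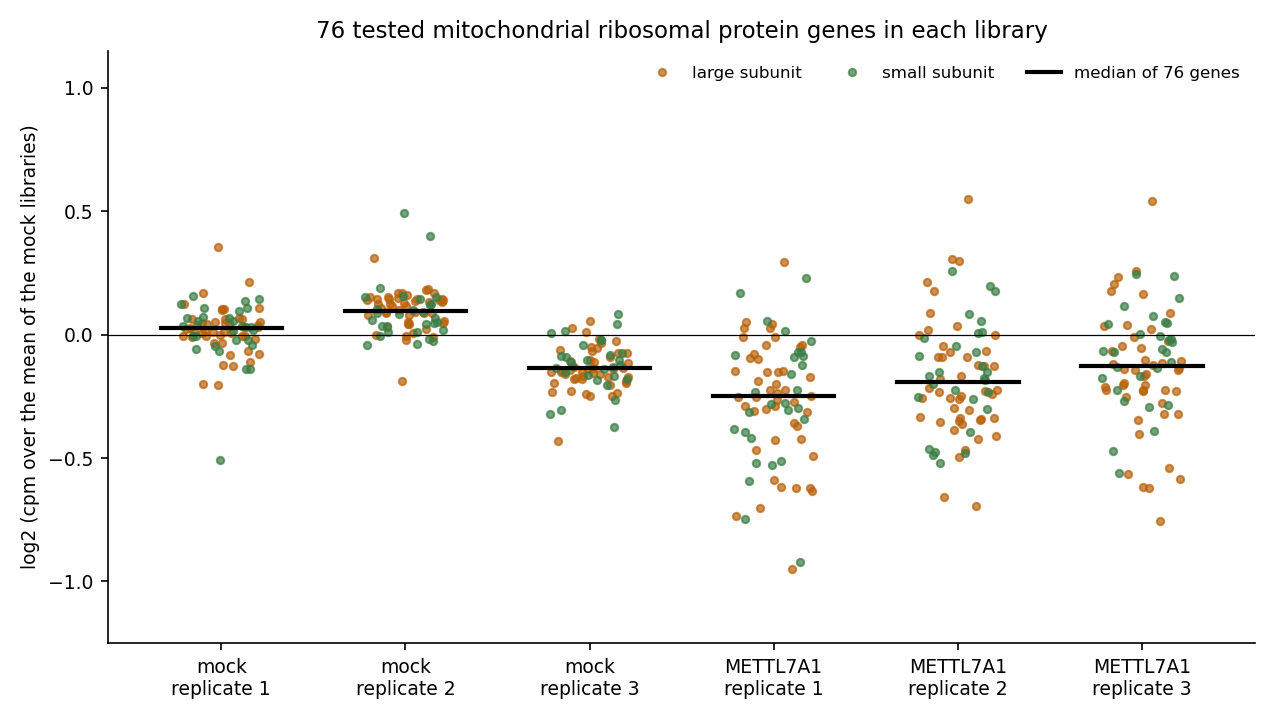
Log2 ratio of each gene's cpm to its mean over the mock libraries (vertical axis) in each of the 6 libraries, 1 point for each of the 76 MRP genes, orange for large and green for small subunit symbols, with the median as a black bar. The medians of the METTL7A1 libraries lie between -0.25 and -0.13, and that of mock replicate 3 (-0.14) falls within this range.

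The strongest decrease was that of Mrpl36 (chr13:73331009-73332175, plus strand, mm10), which encodes one of the smallest proteins of the large subunit and has a bacterial homologue. It was at 9.59, 11.5 and 10.99 cpm in METTL7A1 replicates 1 to 3 and at 19.5, 19.7 and 16.5 cpm in mock replicates 1 to 3. All METTL7A1 libraries were below all mock libraries, by 1.73-fold in the fit (log2 fold change -0.79, SE 0.11, edgeR adjusted p = 0.000239).

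Mrpl20 (chr4:155803521-155808831, plus strand), the homologue of a bacterial protein that binds the large ribosomal RNA early in assembly, was at 25.1, 25.9 and 27.6 cpm with METTL7A1 and at 42.0, 44.2 and 36.1 cpm in mock. The groups did not overlap, and the fold change was -0.64 on the log2 scale (SE 0.09, edgeR adjusted p = 0.000230). Mrpl4, whose product belongs to a family that lines the peptide exit tunnel, was at 15.5, 18.01 and 15.98 cpm with METTL7A1 and at 25.9, 24.8 and 21.3 cpm in mock (log2 fold change -0.53, SE 0.10, edgeR adjusted p = 0.00164), again with no overlap.

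Of the large subunit proteins without a bacterial counterpart, Mrpl57 and Mrpl52 decreased to a similar extent. Mrpl57 was at 17.5, 18.6 and 17.1 cpm with METTL7A1 against 28.2, 28.5 and 22.1 cpm in mock (log2 fold change -0.56, SE 0.11, edgeR adjusted p = 0.00160). Mrpl52 was at 15.9, 17.6 and 15.9 cpm against 25.2, 24.5 and 23.5 cpm (-0.56, SE 0.09, edgeR adjusted p = 0.000390). Neither pair of groups overlapped, and both genes lie on chromosome 14, where the third MRP gene, Mrps16, was also lower. Mrps30, which carries a small subunit symbol although its product is part of the large subunit, was at 24.8, 23.9 and 22.5 cpm with METTL7A1 and at 34.5, 34 and 31.2 cpm in mock (-0.48, SE 0.08, edgeR adjusted p = 0.000644), with separate groups.

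In the small subunit the lowest values belonged to Mrps11 and, after Mrps30, to Mrps28. Mrps11, whose product lies on the platform of the subunit, was at 5.93, 7.21 and 7.18 cpm with METTL7A1 and at 11.1, 10.7 and 8.05 cpm in mock (log2 fold change -0.54, SE 0.15, edgeR adjusted p = 0.0137). Mock replicate 3 lay close to the METTL7A1 libraries, the groups did not overlap, and the call was lost without mock replicate 1 (-0.45, edgeR adjusted p = 0.0706). Mrps28, a homologue of a bacterial protein that binds mRNA, was at 10.1, 10.1 and 12.04 cpm with METTL7A1 and at 15.6, 14.6 and 13.3 cpm in mock (-0.43, SE 0.11, edgeR adjusted p = 0.0108). Its groups were separate by a narrow margin, and its call was lost without METTL7A1 replicate 2 (-0.38, edgeR adjusted p = 0.0603) or mock replicate 1 (-0.36, edgeR adjusted p = 0.0581).

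The other genes called lower lay between -0.42 and -0.24. They were Mrpl1, Mrpl3, Mrpl9, Mrpl12, Mrpl19, Mrpl21, Mrpl43, Mrpl45, Mrpl47, Mrpl49 and Mrpl55 of the large subunit and Mrps7, Mrps16 and Mrps25 of the small subunit. Of all 22 lower calls, 11 were kept with each library left out in turn. Genes were also split by the nomenclature of ribosomal proteins, in which a name marks either a position shared with bacteria or one found in mitochondria only. Those with a bacterial homologue under these names gave 15 lower and 1 higher of 46 genes (median -0.21), and those with a mitochondrial name, Mrps18a and Mrps18b included, gave 7 lower and 1 higher of 30 tested (median -0.18). The difference between these groups was not tested. Of all genes tested, 21% were lower and 21.1% higher.

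Only Mrpl42 and Mrps5 were called higher. Mrpl42, a large subunit protein without a bacterial counterpart, was at 42.6, 50.9 and 50.5 cpm with METTL7A1 and at 34.9, 38.2 and 31.1 cpm in mock (log2 fold change 0.47, SE 0.10, edgeR adjusted p = 0.00253), and each METTL7A1 library was above each mock library. Mrps5, whose bacterial homologue lies at the mRNA entry of the small subunit, was at 42.4, 41.4 and 42.7 cpm with METTL7A1 and at 36.6, 37.5 and 34.4 cpm in mock (0.22, SE 0.07, edgeR adjusted p = 0.0248). Its groups were separate as well, but the call was lost without METTL7A1 replicate 2 (0.23, edgeR adjusted p = 0.0697), METTL7A1 replicate 3 (0.22, edgeR adjusted p = 0.0643) or mock replicate 3 (0.19, edgeR adjusted p = 0.0526).

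**Figure D3:**
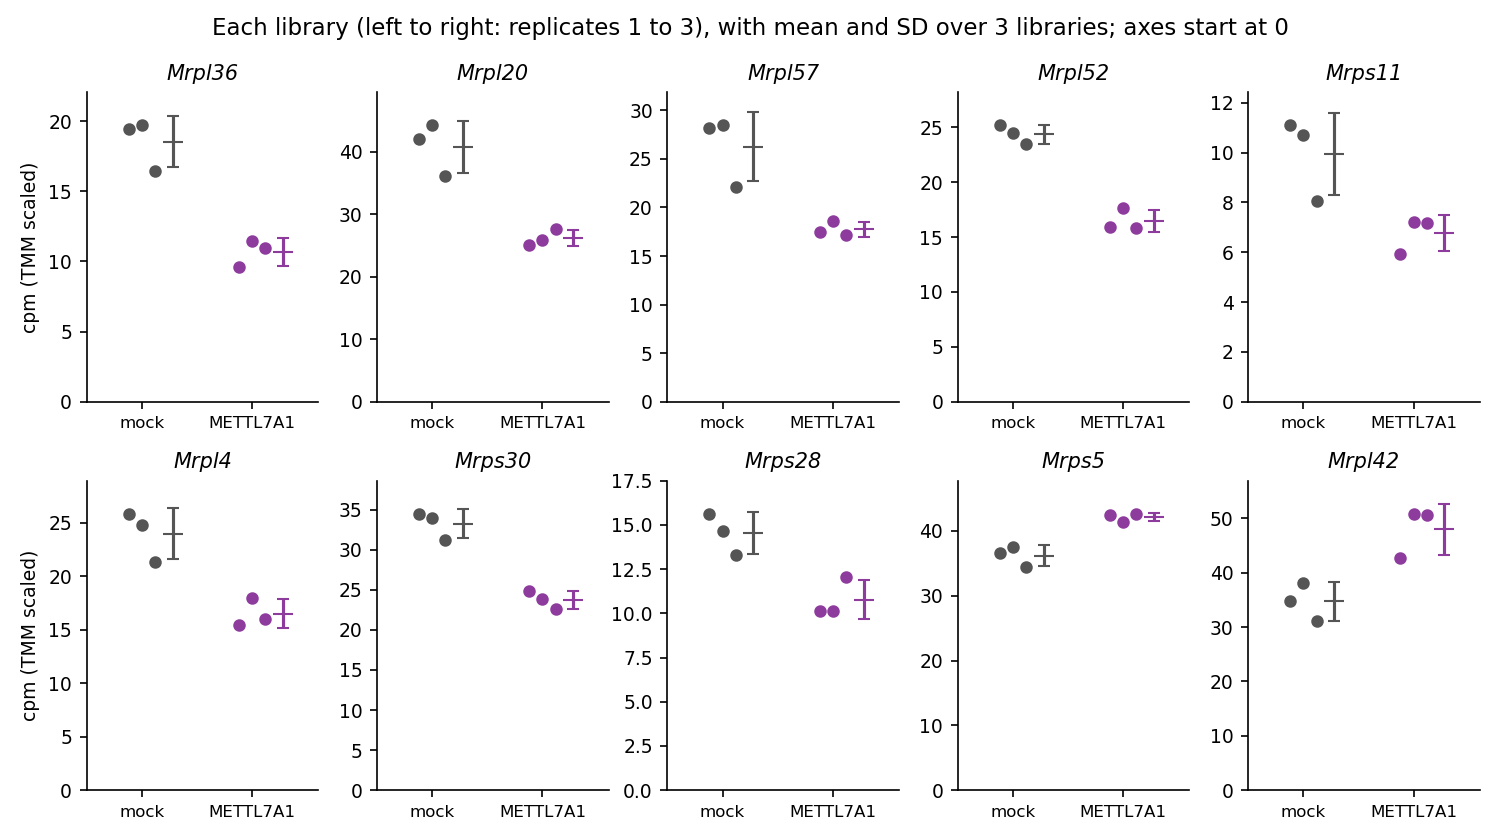
Cpm in each library (points, replicates 1 to 3 from left to right, gray for mock and purple for METTL7A1), with mean and SD over 3 libraries, for the 8 MRP genes with the largest decrease and the 2 called higher. No panel has overlapping groups, and mock replicate 3 is the lowest mock library in every panel.

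The fold changes of the MRP genes went with those of the genes around them on the chromosome. As a measure of the surroundings, fold changes of the 40 abundant genes (log2 cpm above 2) closest to each gene were summarised by their median. This neighbour median ranged from -0.50 to 0.44 around the MRP genes, and across the 76 genes its Pearson correlation with the gene's own log2 fold change was 0.69, given as a description since all values come from the same 6 libraries. Mrpl36 lay in the region with the lowest neighbour median (-0.50) and Mrpl42 in that with the highest (0.44). All 3 MRP genes on chromosome 14 were lower (-0.56 to -0.42, neighbours -0.39 to -0.26), and all 3 on chromosome 16 were above 0 without a call (0.12 to 0.19). The copy number of these regions in the lines was not measured, and its part in these values was not tested.

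With the neighbour median as an offset in the same edgeR test, both rises were no longer called: Mrpl42 changed to 0.03 (adjusted p = 0.817) and Mrps5 to -0.08 (adjusted p = 0.410). No MRP gene was called higher (0, against 18.1% of all genes, and 1 at an unadjusted p under 0.05) and 16 were called lower (against 13.4%, and 22 at an unadjusted p under 0.05). Relative to their own neighbours, 62 of the 76 genes were below 0, with a median of -0.14. Over all 13166 genes tested, 6471 were below 0 with the offset, and the median was 0.005. Of the 22 lower calls 12 were kept, among them Mrpl20 (-0.52, adjusted p = 0.00126), Mrps28 (-0.55, adjusted p = 0.00395), Mrps30 (-0.42, adjusted p = 0.00231), Mrps11 (-0.47), Mrpl4 (-0.36) and Mrpl52 (-0.26). The calls of Mrpl36 (-0.29, adjusted p = 0.0676) and Mrpl57 (-0.30, adjusted p = 0.0519) were lost. Mrpl18, Mrpl50, Mrpl54 and Mrps26 were newly called lower. Their neighbour medians were 0.06 to 0.33, and their own log2 fold changes without the offset were -0.22 to -0.03 with no call.

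**Figure D4:**
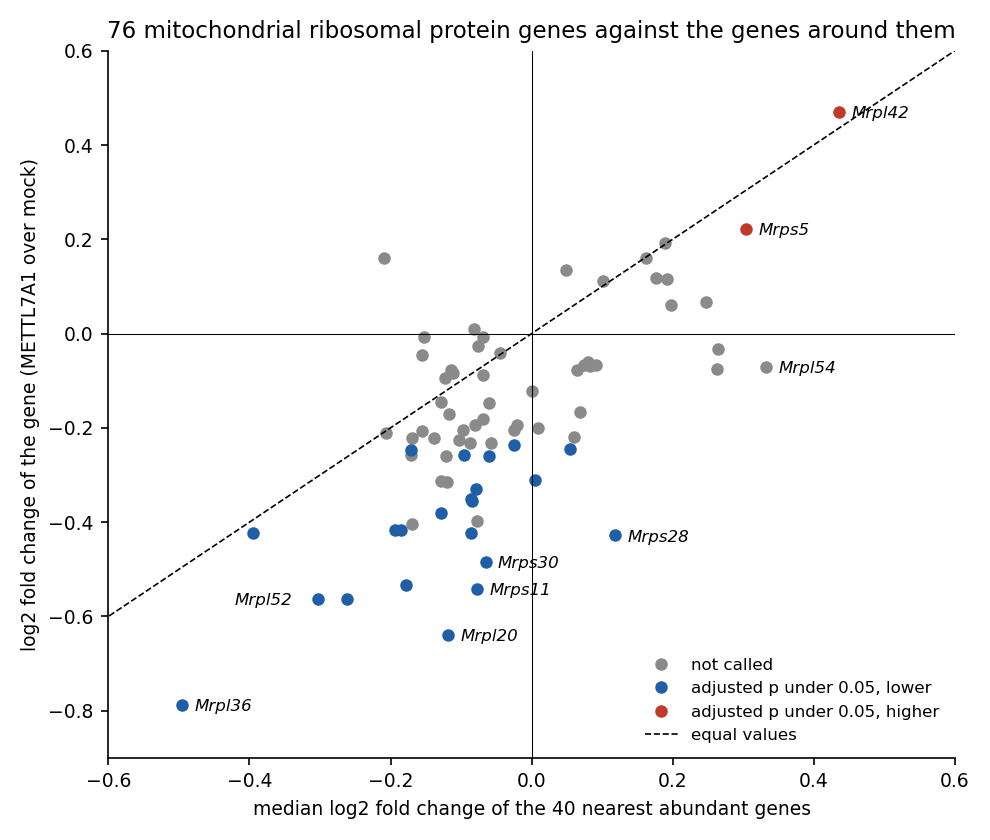
Log2 fold change of each of the 76 MRP genes (vertical axis) against the median log2 fold change of its 40 nearest abundant genes on the chromosome (horizontal axis), with a dashed line of equal values. Both genes called higher (Mrpl42, Mrps5) have raised neighbours, and 62 of the 76 points lie below the line.

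NRF1, GABPA of the ETS family and YY1 are transcription factors with known targets among the nuclear genes for mitochondria. RefSeq promoter windows (GRCm38.p6, from 250 bases before the start site to 50 after it) were matched for 68 of the 77 genes, in 74 windows. No window was matched for Mrpl4, Mrpl13, Mrpl15, Mrpl19, Mrpl38, Mrpl54, Mrps28, Mrps34 and Mrps35. The letters GCGCANGCG (NRF1) were found on either strand in 21.6% of these windows and in 6.25% of the 32851 windows of the whole table. The letters CCGGAAGT (ETS family) were in 16.2% and 3.89%, and AAGATGGCG (YY1) in 10.8% and 1.40%. At least 1 of the 3 was in 45.9% of the MRP windows and in 10.6% of all.

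The windows shown are those of the largest decrease (Mrpl36) and of the larger rise (Mrpl42), of 1 lower gene with each of the other 2 motifs (Mrpl52, Mrpl12), of Mrps11 with its shared promoter and of Mrps26, which held both ETS and NRF1 letters. Motif letters are in capitals and each window is written along its gene's strand. The windows are chr13:73330759-73331058 (plus) for Mrpl36, chr10:95501900-95502199 (minus) for Mrpl42, chr14:54426659-54426958 (plus) for Mrpl52, chr11:120484387-120484686 (plus) for Mrpl12, chr7:78782881-78783180 (plus) for Mrps11 and chr2:130563507-130563806 (plus) for Mrps26.
Mrpl36: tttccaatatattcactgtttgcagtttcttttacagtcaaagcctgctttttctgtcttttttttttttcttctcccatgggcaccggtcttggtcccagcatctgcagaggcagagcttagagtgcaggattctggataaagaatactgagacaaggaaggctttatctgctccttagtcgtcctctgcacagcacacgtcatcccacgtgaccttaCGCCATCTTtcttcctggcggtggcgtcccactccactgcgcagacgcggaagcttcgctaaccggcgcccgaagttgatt
Mrpl42: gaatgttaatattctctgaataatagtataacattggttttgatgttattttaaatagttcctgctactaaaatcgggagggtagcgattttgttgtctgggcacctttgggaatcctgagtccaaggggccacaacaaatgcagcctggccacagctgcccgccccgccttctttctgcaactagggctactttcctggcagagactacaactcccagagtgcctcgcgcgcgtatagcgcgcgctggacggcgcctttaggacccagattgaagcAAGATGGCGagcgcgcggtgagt
Mrpl52: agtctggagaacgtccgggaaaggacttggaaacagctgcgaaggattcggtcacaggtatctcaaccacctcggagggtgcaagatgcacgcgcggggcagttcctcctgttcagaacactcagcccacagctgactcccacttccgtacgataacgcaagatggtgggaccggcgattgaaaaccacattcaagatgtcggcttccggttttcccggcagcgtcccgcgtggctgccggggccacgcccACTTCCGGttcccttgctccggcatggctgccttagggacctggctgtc
Mrpl12: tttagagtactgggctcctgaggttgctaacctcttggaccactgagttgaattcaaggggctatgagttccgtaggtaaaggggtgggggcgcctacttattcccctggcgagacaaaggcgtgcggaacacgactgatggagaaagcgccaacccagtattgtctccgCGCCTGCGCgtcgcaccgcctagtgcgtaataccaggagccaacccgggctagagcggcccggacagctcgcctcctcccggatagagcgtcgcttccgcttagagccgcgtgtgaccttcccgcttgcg
Mrps11: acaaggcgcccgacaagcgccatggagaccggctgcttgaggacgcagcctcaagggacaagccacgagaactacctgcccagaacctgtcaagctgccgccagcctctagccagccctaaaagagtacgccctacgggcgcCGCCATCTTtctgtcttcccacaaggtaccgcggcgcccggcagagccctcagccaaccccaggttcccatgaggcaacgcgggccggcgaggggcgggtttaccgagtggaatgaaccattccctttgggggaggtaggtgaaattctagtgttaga
Mrps26: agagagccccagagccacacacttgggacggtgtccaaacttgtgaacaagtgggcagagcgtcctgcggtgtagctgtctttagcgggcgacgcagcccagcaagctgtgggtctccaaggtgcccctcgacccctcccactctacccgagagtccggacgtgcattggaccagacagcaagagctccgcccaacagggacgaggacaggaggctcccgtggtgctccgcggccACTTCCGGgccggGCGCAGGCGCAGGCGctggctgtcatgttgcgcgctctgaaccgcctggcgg

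In Mrpl36, Mrpl42 and Mrps11 the capitals mark the YY1 letters, at -31 to -23, 27 to 35 and -108 to -100 with the start site counted as 0. The same letters were thus found in the gene with the largest decrease and in that with the largest rise. In Mrpl52 they mark the ETS letters (1 to 8) and in Mrpl12 the NRF1 letters (-80 to -72). In Mrps26 they mark the ETS letters (-15 to -8) followed by 2 overlapping NRF1 matches that span the start site (-2 to 6 and 4 to 12). Of the 34 genes with any of the motifs, 9 were lower and 1 was higher (median log2 fold change -0.19), beside 28.9% lower of all MRP genes and 21% lower and 21.1% higher of all genes tested, and the median was -0.16 for the 16 genes with NRF1 letters, -0.14 for the 12 with ETS letters and -0.20 for the 8 with YY1 letters. A match is a description of the letters and not evidence of binding.

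For 27 MRP genes a tested gene started on the other strand within 1000 bases, and the share of such genes in the whole table is not given here. In some pairs the genes ran apart from their starts, and in others their starts overlapped, as for the lower genes Mrpl21, Mrpl47 and Mrps7. Of the 7 lower MRP genes in such a pair, the partner was lower in 1 (Mrpl57 and Ska3, a kinetochore gene, -0.56 and -0.31) and had no call in 6. Where the MRP gene had no call, the partner was higher in 3 pairs, lower in 2 and without a call in 14. Mrps11 and Mrpl46 are partners of each other, so their pair was counted from both sides. It stands both among the 6 and among the 2. Of all genes tested, 21.1% were higher and 21% lower. Mrps11 and Mrpl46, of the small and the large subunit, start 30 bases apart on chromosome 7. Mrpl46 was at 6.90, 9.11 and 9.89 cpm with METTL7A1 and at 12.5, 12.1 and 9.78 cpm in mock, and its change of -0.40 (log2, SE 0.15) had the sign of that of Mrps11 but did not pass the test (edgeR adjusted p = 0.0538). Mrps5 and its partner Zfp661 had log2 fold changes of 0.22 and 0.12, of which the second was within its SE of 0.19.

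Between genes, levels were compared per kilobase of exon, as scaled cpm per kilobase. In mock cells they ranged from 1.86 (Mrpl48) to 75.8 (Mrpl33) for the large subunit, a ratio of 40.7, and from 2.58 (Mrps33) to 32.6 (Mrps21) for the small subunit, a ratio of 12.6. The medians were 18.3 and 16.03 in mock and 15.5 and 13.8 with METTL7A1. The exon length counted for a gene includes all its annotated transcripts (7605 bases for Mrpl17), which lowers this value for genes with long rare isoforms.

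The most abundant large subunit genes in mock were Mrpl33 (75.8 ± 6.91, SD, n = 3), Mrpl13 (54.0 ± 4.72) and Mrpl12 (53.6 ± 6.26), of which the last 2 did not differ beyond their spread. With METTL7A1 Mrpl33 and Mrpl13 were at 76.2 ± 2.85 and 51.7 ± 4.02, within the spread of the mock libraries, with log2 fold changes of 0.01 and -0.06 and SE of 0.08 for both. Mrpl12, the stalk protein that in bacteria recruits translation factors, was at 45.9, 55.8 and 56.4 cpm with METTL7A1 and at 72.2, 77.9 and 61.7 cpm in mock (log2 fold change -0.42, SE 0.10, edgeR adjusted p = 0.00730). Its groups did not overlap, its per-kilobase level fell to 40.1 ± 4.52, and with the neighbour offset the call was lost (-0.22, adjusted p = 0.124). Mrpl42 moved from rank 4 to rank 2 and Mrpl20 from rank 6 to rank 13 among the 76 genes.

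At the low end of the large subunit stood Mrpl17 (4.24 ± 0.274), Mrpl23 (3.94 ± 0.949), whose bacterial homologue lies at the exit of the tunnel, and Mrpl48 (1.86 ± 0.237). The values with METTL7A1 over mock were -0.22 (log2, SE 0.09) for Mrpl17, -0.31 (SE 0.13) for Mrpl48 and -0.22 (SE 0.21) for Mrpl23, which had 72 to 89 counts in a library. None of these passed the test. In the small subunit Mrps21 (32.6 ± 3.25), Mrps18b (28.6 ± 2.21) and Mrps9 (25.8 ± 0.687) were the most abundant, with log2 fold changes of -0.19, 0.07 and -0.08 and no call. Mrps35 (5.10 ± 0.304), Mrps36 (4.44 ± 1.61) and Mrps33 (2.58 ± 0.738) were the least abundant, at -0.20 (SE 0.10), -0.17 (SE 0.26) and -0.07 (SE 0.21), and changes of the size of the set's median were not detectable for Mrps36 and Mrps33, which had 40 to 127 counts in a library.

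**Figure D5:**
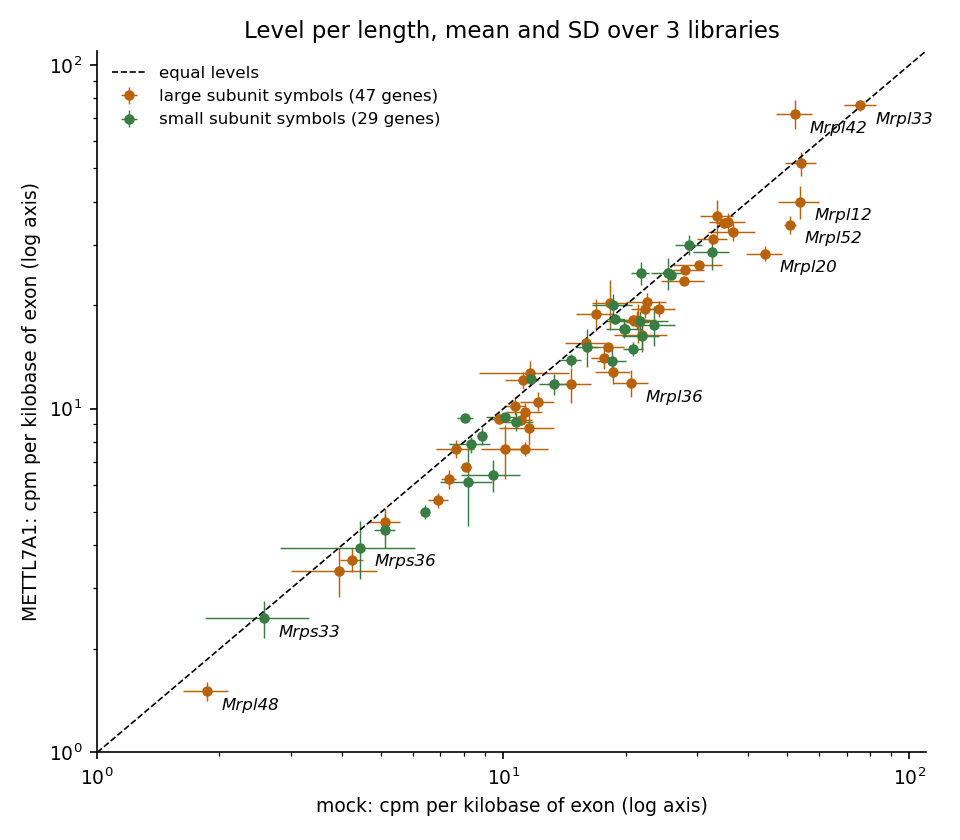
Level of the 76 MRP genes per kilobase of exon in METTL7A1 cells (vertical log axis) against mock cells (horizontal log axis), mean and SD over 3 libraries, orange for large and green for small subunit symbols, with a dashed line of equal levels. Levels run from 1.86 (Mrpl48) to 75.8 (Mrpl33) in mock, with Mrpl42 above the line and Mrpl12, Mrpl20, Mrpl36 and Mrpl52 below it.

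Mrps18a, Mrps18b and Mrps18c are paralogs whose products occupy different places in the ribosome, and of these only Mrps18c was counted among the genes with a bacterial homologue. Mrps18b was the most abundant in mock (28.6 ± 2.21 scaled cpm per kilobase), followed by Mrps18a (19.8 ± 0.153) and Mrps18c (13.3 ± 1.06), and neighbours in this order differed by more than their spread. Mrps18a was at 16.5, 17.9 and 18.8 cpm with METTL7A1 and at 20.4, 20.5 and 20.7 cpm in mock, so its groups were separate, but the difference of -0.21 (log2, SE 0.09) did not pass the test (edgeR adjusted p = 0.0686). Mrps18c (-0.18, SE 0.11) and Mrps18b (0.07, SE 0.09) had overlapping groups and no call. Part of the exons of Mrps18c (18.5%) is shared on the same strand with Gm43511, and part of those of Mrps6 (18.8%) with the more highly counted Slc5a3, so reads in these stretches may be lost to either gene.

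Of the 5 subunit genes with another kind of symbol, 2 were lower (median log2 fold change -0.28), beside 21% lower of all genes tested. Dap3, the GTP-binding protein of the small subunit, fell by 0.30 on the log2 scale (SE 0.07, edgeR adjusted p = 0.00574) and Chchd1, of the same subunit, fell by 0.42 (SE 0.08, edgeR adjusted p = 0.00226), the latter among neighbours at -0.39. Ptcd3 (-0.22, SE 0.09), Gadd45gip1 (-0.28, SE 0.12) and Aurkaip1 (-0.11, SE 0.10) had no call. With the neighbour offset the call of Chchd1 was lost (-0.02) and the median of the 5 was -0.08. Ict1, which encodes a peptidyl-tRNA hydrolase built into the large subunit, was at 10.2, 11.1 and 10.6 cpm with METTL7A1 and at 14.1, 14.6 and 12.9 cpm in mock (log2 fold change -0.38, SE 0.10, edgeR adjusted p = 0.0114). Its groups did not overlap.

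Among 26 tested genes for the assembly of the mitochondrial ribosome and its RNAs, 7 were lower and 2 higher (median log2 fold change -0.10), beside 21% and 21.1% of all genes tested. Mettl15, which methylates the RNA of the small subunit, rose by 1.22 (SE 0.18, edgeR adjusted p = 0.000270), from 2.29 ± 0.297 to 5.29 ± 0.570 cpm (SD, n = 3). Mterf3, which acts in mitochondrial transcription and in assembly of the large subunit, fell by 0.59 (SE 0.08, edgeR adjusted p = 0.000178), the GTPase Noa1 fell by 0.43 (SE 0.10, edgeR adjusted p = 0.00389), and the helicase Dhx30 fell by 0.30 (SE 0.08, edgeR adjusted p = 0.0139). The call of Dhx30 was lost without METTL7A1 replicate 3 (-0.26, edgeR adjusted p = 0.0567) or mock replicate 1 (-0.22, edgeR adjusted p = 0.0803). The lower count of this list was 2 without METTL7A1 replicate 3 or mock replicate 1, 3 without METTL7A1 replicate 2 and 2 with the neighbour offset, in which Mterf3 (-0.18) and Dhx30 (-0.15) were not called. The higher count was 1 without METTL7A1 replicate 2, METTL7A1 replicate 3 or mock replicate 1, and 1 with the replicate block or the neighbour offset. Calls over all genes fell too in these settings, from 42.1% in either direction with all libraries. They made up 35.2% without METTL7A1 replicate 3, 32.7% without mock replicate 1 and 29.1% without METTL7A1 replicate 2. With the neighbour offset they made up 31.5%, and with the replicate block 36.5%.

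Of 15 tested genes listed for translation in the organelle, not all of them translation factors, 7 were lower (beside 21% of all genes tested). The list had a median log2 fold change of -0.31. Lrpprc and Slirp, which form a complex that stabilises mitochondrial mRNAs, fell by 0.52 (SE 0.07, edgeR adjusted p = 0.000110) and by 0.62 (SE 0.09, edgeR adjusted p = 0.000243). The elongation factor Gfm1 fell by 0.51 (SE 0.07, edgeR adjusted p = 0.000214) and the initiation factor Mtif3 fell by 0.72 (SE 0.10, edgeR adjusted p = 0.000280). The count of lower genes in this list stayed at 7 or 8 with each library left out, while the median was -0.19 without METTL7A1 replicate 3. Calls in either direction made up 29.1% to 44.5% of all genes in these omissions. With the neighbour offset 6 were lower (background 13.4%) and the median was -0.11. The calls of Slirp (-0.14) and Oxa1l (-0.11) were lost, and Tsfm, at 0.18 without the offset and no call, was newly called lower (-0.39). Among 11 tested regulators of mitochondrial biogenesis, 3 were higher and 1 lower (median log2 fold change 0.08), beside 21.1% and 21% of all genes tested. The median ranged from 0.01 without mock replicate 3 to 0.14 without METTL7A1 replicate 1 and was -0.01 with the neighbour offset. Tfam, which packages and transcribes mitochondrial DNA, rose by 0.59 (SE 0.07, edgeR adjusted p = 4.28e-05), Gabpb1, the partner of GABPA, rose by 0.41 (SE 0.08, edgeR adjusted p = 0.00143), a call lost with the neighbour offset (0.14, edgeR adjusted p = 0.181), and Myc rose by 0.24 (SE 0.07, edgeR adjusted p = 0.0122), a call lost without METTL7A1 replicate 2 (0.23, edgeR adjusted p = 0.0663). The coactivator gene Pprc1 fell by 0.61 (SE 0.07, edgeR adjusted p = 6.84e-05), while Nrf1 (-0.10, SE 0.09), Gabpa (0.12, SE 0.07) and Yy1 (-0.03, SE 0.07) had no call. With the neighbour offset 3 of the regulators were higher and 2 lower (background 18.1% and 13.4%). There Yy1 was newly called higher (0.25, edgeR adjusted p = 0.0136) and Ppargc1b newly called lower (-0.66, edgeR adjusted p = 0.00828).

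The proteins of the cytosolic ribosome gave a like distribution. Of 78 tested genes, 29 were lower and 2 were higher with a median of -0.21 on the log2 scale. The MRP genes gave 22 lower and 2 higher of 76 and a median of -0.20. Of all genes tested, 21% were lower and 21.1% higher, with a median of -0.03. With the neighbour offset 9 cytosolic genes were lower (background 13.4%). Without the offset, the count of lower cytosolic genes was 48 without mock replicate 3, against 11 without mock replicate 1 or mock replicate 2. It was 14 without METTL7A1 replicate 2, 19 without METTL7A1 replicate 1 and 17 with the replicate block. Calls in either direction made up 44.5% of all genes without mock replicate 3, and 32.7% and 35.3% without mock replicates 1 and 2. They made up 29.1% without METTL7A1 replicate 2, 41.7% without METTL7A1 replicate 1 and 36.5% with the replicate block. The difference between the cytosolic and the MRP genes was not tested. Of the 13 mRNAs that mitochondrial ribosomes translate, 7 had at least 7021 counts in every library, with log2 fold changes from -0.31 to 0.64 and a median of -0.10. Of these only mt-Nd6 was called (0.64, SE 0.14, edgeR adjusted p = 0.00312, higher), beside 42.1% of all genes tested called in either direction. The other 6 had at most 42 counts, so changes in them could not be read.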

How the data were processed

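RNA of 3 METTL7A1 and 3 mock cultures was sequenced after ribosomal RNA depletion with a stranded kit. According to the study's methods and the submitters' processing notes, the authors trimmed the reads, aligned them to mm10 with STAR 2.5.3a and counted them per Ensembl gene with featureCounts in R 3.5.1. The deposited values are raw counts per gene, beside an exon length in bases that was used for levels per kilobase. The strand setting of the counting is not given in the sources used here. AY036118 lies inside Gm42418 on the other strand and received more counts in all 6 libraries, so strands were told apart.

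From the counts, TMM factors and the quasi-likelihood test of edgeR 4.0.16 (R 4.3.3) were computed over all 13166 genes with at least 1 cpm in at least 3 libraries, with Benjamini-Hochberg adjustment over these genes. DESeq2 1.42.0 and limma 3.58.1 (voom), 2 other scalings, 2 other filters, a replicate block, neighbour and length offsets and the omission of each library served as alternatives. Scripts were tested on simulated data. The genes, pathway lists, motifs and tests were chosen with earlier results of these data known. Genes were given with values where they were among the 8 largest rises or falls called, the 3 most or least abundant per kilobase of each subunit in mock, the Mrps18 paralogs, Mrps30, Mrps36 or below the filter. All genes of the first pathway list and at most 4 called genes of each other list by smallest p were named. Mrpl46, Ict1, mt-Nd6, Oxa1l, Tsfm, Nrf1, Gabpa, Yy1, the genes listed without values among the calls and those newly called with the offset, and the named partner or overlapping genes, were picked with their values in view.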

Additional observations from a re-analysis of the deposited data

How the results depend on the processing

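The median log2 fold change of the MRP genes stayed below 0 in all 15 alternatives (-0.25 to -0.14), and 0 genes passed the thresholds of the study in any of them. The count of lower genes was 20 to 24 with 2 other scalings, DESeq2, limma voom, the filter on 10 counts and the length offset, 17 without a filter, when 28601 genes were tested, 16 with the neighbour offset and 13 to 35 with single libraries left out. The count of higher genes was 1 to 3 with single libraries left out and 0 with the neighbour offset. Calls in either direction made up 20.9% of all genes without a filter and 31.5% with the neighbour offset. With single libraries left out that share was 29.1% to 44.5%. Of the 22 lower genes, 8 were called in every alternative: Mrpl4, Mrpl9, Mrpl19, Mrpl20, Mrpl52, Mrps7, Mrps25 and Mrps30.

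Replicate numbers did not pair the libraries (correlations of same-numbered deviations -0.16, 0.29 and -0.43). With the replicate block the count was 20 lower and 1 higher, Mrps5 having lost its call (0.22, edgeR adjusted p = 0.0623).

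Signs turned for 6 of the 24 named genes, and the cause was not tested. Mrps5, called higher without it, and Mrps18b turned with the neighbour offset (-0.0824 and -0.179). With single libraries left out, Mrpl13 ranged from -0.113 to 0.0061, Mrpl33 from -0.0488 to 0.0743, Mrps33 from -0.224 to 0.191 and Mrps36 from -0.339 to 0.154. Over all 24 named genes and 15 alternatives, 9 values turned sign, 337 kept direction and side of the threshold, 11 lost their call and 3 gained one. Depth limited single genes: Mrpl23, Mrps33 and Mrps36, with 40 to 127 counts in a library, had SE of 0.21 to 0.26 on the log2 scale.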
